A study of Homo sapiens with 26 samples.

Results

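The MLL/COMPASS guides of this CRISPR knockout screen are those whose target name starts with KMT2 or MLL, or is SETD1A, SETD1B, WDR5, ASH2L, RBBP5, DPY30, KDM6A or MEN1. The rule used names only and no measured value, though it was chosen with earlier results of these data known. It found 80 of the 12342 guides of the series, against 7 genes: KMT2A, KMT2B and SETD1B in pool CF1 (30 guides), KMT2D, MEN1 and WDR5 in pool CF2 (40 guides) and SETD1A in pool CF3 (10 guides). KMT2D had 20 guides and each other gene 10. The rule found no guide named KMT2C, ASH2L, RBBP5, DPY30 or KDM6A, so these genes were not analysed here. The exon scan and test libraries held 0 guides of the rule, and no gene lay in more than 1 pool.

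Cells were RH4, an established alveolar rhabdomyosarcoma line labelled PAX3-FOXO1+, a fusion of 2 transcription factors. They were infected with a pool of guides, selected with a drug, fixed at day 7, stained with antibodies to myosin heavy chain (MYH), which differentiated muscle cells make, and split by FACS into an MYH high and an MYH low sample. All groups used below therefore share the line, the fusion and infection with guides. Within a pool they differ in the sorted MYH level, and between pools also in the guides and the pair of samples. Each arm of each pool is 1 sample. A guide's reads stand for the share of sorted cells that carried it, so a guide more common in MYH high marks a target whose loss went with more MYH. How many of those cells had lost the protein was not measured in these samples.

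COMPASS complexes add methyl groups to lysine 4 of histone H3, a mark found at active promoters and enhancers. Each complex is built around 1 enzyme of the KMT2 or SETD1 families, which works with a shared core that holds WDR5, ASH2L, RBBP5 and DPY30, and other subunits differ between complexes. MEN1 (menin) joins those of KMT2A and KMT2B, and KDM6A, an H3K27 demethylase, joins those of KMT2C and KMT2D. Enhancer H3K4 methylation by KMT2D has a known part in muscle differentiation, and KMT2A is known for its gene fusions in leukaemia.

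The levels below are read counts scaled to a sample total of 1000000 (CPM). The difference is the log2 of the CPM in MYH high over that in MYH low, with a pseudocount of 1 CPM, centred on the median of all guides of the pool. The value of a gene is the median over its guides, with the SD over guides. Guides of 1 gene share their target and are not replicates of the sort, so with 1 sample per arm no test between MYH high and MYH low was possible. A gene was counted as shifted where its value was 0.3 or more from 0, which is 1.23-fold. The sorted samples held 124571531 (MYH high) and 101010414 (MYH low) counts in CF1, 130085483 and 166032777 in CF2, and 21819567 and 98457308 in CF3. Each MLL/COMPASS guide had at least 7593 counts in either arm. Its log2 ratio had a counting error with a median of 0.007 and at most 0.018, below the SD over guides of every gene (0.12 to 0.31). PCR reads without molecular identifiers are not independent molecules, so these errors cover counting alone.

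Pool CF3, which carries SETD1A, stood apart in its controls. All of its 10 negative-control guides lay above 0, at a median of 1.30 (SD 0.46), as did its 7 guides against PCNA, a clamp that holds DNA polymerase on its template, at 1.34 (SD 0.30). The control guides named PAX3 non-fusion and FOXO1 non-fusion were raised there too, at 1.04 (SD 0.21) and 0.52 (SD 0.32). Their medians were 0.13 and 0.08 in CF1, and both were 0.18 in CF2. In CF1 the negative-control guides had a median of 0.07, running from -0.17 to 4.43, and in CF2 a median of -0.09, running from -0.34 to 0.41. The 4.43 was 1 guide, sgRNA3239, and the next highest in CF1 was at 0.17. That guide was also the highest negative control in CF2 and, at 2.22, in CF3. Guides against the DNA-binding part of the PAX3-FOXO1 fusion gave the scale of a strong shift, with medians of 3.24 in CF1, 4.53 in CF2 and 3.60 in CF3.

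None of the 7 MLL/COMPASS genes was shifted in either direction. Their values ran from -0.16 (WDR5) to 0.10 (KMT2D), with a median of -0.04, where the median over the 317 targets of the 3 pools was -0.01. Of those targets 1.89% were at 0.3 or above and 1.26% at -0.3 or below, so 0 of 7 in each direction is near what all targets of these pools gave. By pool, 1.87% of CF1 targets were at 0.3 or above and 0% at -0.3 or below, in CF2 1.92% in each direction, and in CF3 1.89% in each. The values of 6 genes lay below 0 and that of KMT2D above it, where 54.6% of all targets lay below 0. Of the 80 guides, 35 (43.75%, exact binomial 95% confidence interval 32.7 to 55.3%, which treats guides as independent) lay above 0, against 47.8% of all guides of targets. At 0.3 or above lay 3 of the 80 guides (background 9.48%), and at -0.3 or below lay 5 (background 10.1%). Without CF3, 2 of 70 guides were at 0.3 or above (background 7.36%) and 4 at -0.3 or below (background 6.46%). Both shares were below those of all target guides, also without that pool. Over the 80 guides, however, their exact binomial 95% intervals held the background shares. These were 0.78 to 10.6% at 0.3 or above and 2.06 to 14.0% at -0.3 or below, again with guides as independent. Guides of 1 gene share their target, so these intervals are no test of a difference from the background. CF3 also held 1072 of the 3300 target guides but only 10 of the 80 member guides. Without CF3 the share at -0.3 or below was 5.71%, near its background of 6.46%.

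KMT2A, KMT2B and KMT2D are the large methyltransferases of the MLL branch. Of their 40 guides, 22 lay above 0, of which 14 were among the 20 of KMT2D. At 0.3 or above lay 2 of the 40 and at -0.3 or below also 2, where 7.36% and 6.46% of all target guides of CF1 and CF2 did.

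KMT2A guides had 384 to 941 CPM in MYH high cells, with a median of 687, and 446 to 1068 CPM in MYH low cells, with a median of 742. Its value was -0.10 (SD 0.18), rank 86 of 107 targets of CF1 from the top, with 4 of 10 guides above 0 where 48% of all target guides of CF1 were. The lowest guide, sgRNA_12093, had 521 CPM in MYH high and 727 in MYH low, a log2 ratio of -0.40 (exact 95% counting interval -0.41 to -0.38). The highest, sgRNA_12091, had 875 CPM in MYH high and 758 in MYH low, a log2 ratio of 0.29. The other 8 guides lay between -0.16 and 0.05. KMT2A guides therefore went both ways, and the extremes on either side were single guides.

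KMT2B, the closest relative of KMT2A, had a value of -0.04 (SD 0.13), rank 68 of 107, with 4 of 10 guides above 0. Its guides had 491 to 1461 CPM in MYH high, with a median of 759, and 488 to 1537 CPM in MYH low, with a median of 906. The lowest, sgRNA_11134, had 735 CPM in MYH high and 973 in MYH low, a log2 ratio of -0.32, and the next lowest was at -0.13. The highest, sgRNA_11137, was at 0.11. Apart from that lowest guide, the KMT2B guides lay between -0.13 and 0.11.

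KMT2D, which with KMT2C marks enhancers, was the only member gene with a value above 0, at 0.10 (SD 0.16) over 20 guides, or 1.07-fold. It ranked 22 of 104 targets in CF2, with 14 of 20 guides above 0 where 48.6% of all target guides of CF2 were. Its guides had 495 to 1459 CPM in MYH high, with a median of 765, and 545 to 1450 CPM in MYH low, with a median of 844. The highest guides were sgRNA_10284, with 750 CPM in MYH high and 646 in MYH low (0.35), and sgRNA_10272, with 733 and 640 (0.33). The lowest was sgRNA_10279, with 509 CPM in MYH high and 624 in MYH low, a log2 ratio of -0.16. The direction rested on the centring: with none it was -0.04, and centred on the negative-control guides it was 0.19.

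SETD1A and SETD1B are the enzymes of the complexes that lay down most promoter H3K4 trimethylation. SETD1B in CF1 had a value of -0.02 (SD 0.16), rank 58 of 107, with 4 of 10 guides above 0. Its guides had 446 to 1426 CPM in MYH high, with a median of 635, and 452 to 1697 CPM in MYH low, with a median of 669. The lowest, sgRNA_11165, had 484 CPM in MYH high and 670 in MYH low, a log2 ratio of -0.39, and the highest, sgRNA_11166, was at 0.13. Its value was -0.08 centred on the negative-control guides and -0.07 as a mean weighted by counts.

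SETD1A in CF3 had a value of -0.01 (SD 0.31), rank 50 of 106, with 5 of 10 guides above 0, where 46.8% of all target guides of CF3 were. Its guides had 348 to 2759 CPM in MYH high, with a median of 724, and 381 to 3083 CPM in MYH low, with a median of 612. It held the highest of the 80 guides, sgRNA_11126, with 792 CPM in MYH high and 517 in MYH low, a log2 ratio of 0.74 (exact 95% counting interval 0.71 to 0.76), and the lowest, sgRNA_11127, with 350 and 513, at -0.43. Over guides SETD1A was the most spread of the 7 genes, and CF3 was the most spread of the 3 pools, with a median SD per target of 0.28 against 0.15 in CF1 and 0.19 in CF2. Relative to the negative-control guides of CF3 its value was -1.31, because those controls stood at 1.30. Centred so, 100% of the targets of CF3 were at -0.3 or below, and 33.8% of all targets of the 3 pools. What part the raised controls have in the value was not tested.

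WDR5, the core subunit that presents histone H3 to the enzymes, had the lowest value of the 7 genes as centred here, -0.16 (SD 0.12), or 0.896-fold. Centred on the negative-control guides it was -0.07, above KMT2A (-0.16), KMT2B (-0.11), SETD1B (-0.08) and SETD1A (-1.31), so the order across pools is not fixed. It ranked 94 of 104 targets in CF2, with 8 of 10 guides below 0. At least 80% of guides lay below 0 for 22.1% of all CF2 targets, so that count is no rare one in this pool. WDR5 guides had 346 to 676 CPM in MYH high, with a median of 541, and 374 to 770 CPM in MYH low, with a median of 666. The lowest, sgRNA_11333, had 346 CPM in MYH high and 461 in MYH low, a log2 ratio of -0.28, and the highest, sgRNA_11335, had 580 and 607, at 0.07. WDR5 guides lay closer together than those of any other member gene, with 0 of 10 beyond 0.3 on either side. Among all CF2 targets their SD was at the 4.81 percentile.

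MEN1 encodes menin, which ties KMT2A and KMT2B complexes to chromatin. Its value was -0.12 (SD 0.17), rank 85 of 104 in CF2, again with 8 of 10 guides below 0. MEN1 guides had 228 to 1204 CPM in MYH high, with a median of 1002, and 268 to 1567 CPM in MYH low, with a median of 1058. The lowest, sgRNA_9026, had 1094 CPM in MYH high and 1513 in MYH low, a log2 ratio of -0.34, and the highest, sgRNA_9027, had 1120 and 1081, at 0.18. WDR5 and MEN1, both measured in the same pair of samples, together had 16 of 20 guides below 0, where 51.4% of all target guides of CF2 were. They also had the lowest values of the member genes, so their joint count adds nothing to those values. KMT2D, in the same samples, had 14 of 20 guides above 0. The joint count of WDR5 and MEN1 depended on the centring. On the negative-control guides it was 12 of 20, where 34.1% of target guides were below 0, and the values were -0.07 for WDR5 and -0.03 for MEN1.

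Differences between genes of 1 pool do not depend on the centring, and 6 such pairs could be compared. In CF2, KMT2D lay above WDR5 by 0.26 and above MEN1 by 0.22, in both pairs more than the SD over guides of either gene. Of the 20 KMT2D guides, 12 lay above the highest WDR5 guide, and 5 of 10 WDR5 guides lay below the lowest KMT2D guide, so the ranges overlapped. Against MEN1 the overlap was wider, with 5 of 20 KMT2D guides above the highest MEN1 guide and 4 of 10 MEN1 guides below the lowest KMT2D guide. MEN1 and WDR5 differed by 0.04, and in CF1 KMT2A, KMT2B and SETD1B differed by 0.02 to 0.08, less than the SD of either gene of the pair. These differences were not tested, since each rests on 1 pair of sorted samples. Nor were they set against other pairs of CF2 targets, so how common such gaps and overlaps are in that pool is not known. SETD1A had no other member gene in its pool.

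The abundance of the guides over both arms, which the ratio does not use, differed between the genes. The median MEN1 guide had 1.37 times the median guide of CF2, at the 97.1 percentile of its targets, and the median WDR5 guide had 0.796 times it, at the 10.6 percentile. For the other 5 genes it was 0.854 to 1.11 times the median guide of their pool. The libraries before infection were not analysed here, so guides lost by day 7 and guides rare from the start cannot be told apart.

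The authors' deposited table gives each target of a pool a score, beta, with the sign of the shift toward MYH high. In the authors' deposited table beta was -0.083 for WDR5, -0.070 for MEN1, -0.045 for KMT2A, -0.042 for SETD1B and -0.029 for KMT2B. It was 0.062 for KMT2D and 0.029 for SETD1A in the authors' deposited table, so SETD1A alone had another sign there than its median. Its mean over guides, 0.04, was also above 0. The lowest false discovery rate of the 7 genes in the column fdr of the authors' deposited table was 0.174, for WDR5. In the Wald column of the authors' deposited table the lowest rate was 0.0934, for WDR5 and for KMT2D. The columns differed for KMT2D, which had 0.862 in the column fdr of the authors' deposited table. By either column 0 of the 7 genes passed 0.05. The negative-control guides of CF3 had a beta of 0.916 in the authors' deposited table. Their rate there was 0 in the column fdr and 0.223 in the Wald column. In CF1 and CF2 their beta in the authors' deposited table was 0.228 and -0.035, with rates of 0.2 and 0.6 in the column fdr.

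Related chromatin genes were taken from 5 lists: factors that associate with COMPASS (4 genes measured), H3K4 demethylases (2), partners of MLL fusions with DOT1L (1), Polycomb repressive complex 2 (1) and other histone lysine methyltransferases (9). Of these 17 genes, 0 were at 0.3 or above and 0 at -0.3 or below, where 1.52% and 0.813% of the 984 targets of the 10 pools were. The count rested on the centring in CF3: centred on the negative-control guides, the 4 listed genes of that pool (KDM1A, KMT5A, SETD5 and SMYD5) were at -0.3 or below, as were 100% of its targets, and 0 of the other 13 were shifted. Among the 4 measured factors that associate with COMPASS, CXXC1, which recruits SETD1 complexes to unmethylated CpG DNA, had the lowest value, -0.12 (SD 0.14) with 8 of 10 guides below 0. HCFC1, a cofactor of several of these complexes, had the highest, 0.03 (SD 0.19) over 20 guides. In CF1, the pool of CXXC1, 24.3% of targets had at least 80% of their guides below 0. DOT1L, the H3K79 methyltransferase that MLL fusions recruit, had -0.17 (SD 0.12) in CF2, with 8 of 10 guides below 0. Of the H3K4 demethylases measured, KDM1A (LSD1) had 0.16 (SD 0.34) in CF3 and KDM5A -0.03 (SD 0.11) in TF2, and centred on the negative-control guides both signs turned, to -1.13 and 0.08. EED, a core subunit of Polycomb repressive complex 2, had -0.05 (SD 0.21), and 0.04 with that centring.

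The 9 other histone lysine methyltransferases had a median of 0.01. ASH1L, which methylates H3K36, was the lowest at -0.14 (SD 0.10), with 0 of 10 guides above 0. EHMT2 (G9a), which methylates H3K9, was the highest at 0.14 (SD 0.15), with 10 of 10 guides above 0. Of all CF2 targets, 4.81% had every guide above 0 and 1.92% every guide below. SETD2, an H3K36 methyltransferase, had -0.01 (SD 0.22), and EHMT1, which pairs with EHMT2, also had -0.01 (SD 0.16). The 2 genes SETD2 and EHMT1 were named after their values were seen. All 4 were measured in CF2, the pool of KMT2D, MEN1 and WDR5. Centred on the negative-control guides, ASH1L was at -0.04 and EHMT2 at 0.23, while SETD2 and EHMT1 both turned to 0.08. The guide counts of ASH1L and EHMT2 given here are for the centring on all guides of the pool.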

How the data were processed

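Reads of guide cassettes, amplified by PCR from genomic DNA per the labels' protocols, were used as raw counts per guide, which the authors deposited for each sample. For each pool the authors also deposited target scores (beta) with p-values and false discovery rates, under the column names of MAGeCK's MLE mode per the file headers. The submitters' processing notes name FastQC and MAGeCK. Their versions were not given in the sources used here. Guides are identified by number, so no sequence, site or coordinate is printed.

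A minimum of 10 counts summed over both arms removed 0 of the 80 member guides. Targets needed 3 guides, and the shared control sets were not counted as targets. All member genes were named with their highest and lowest guide, and of each related list the highest and the lowest gene. The members and lists were chosen with earlier results of these data known. The procedure was tested on simulated data, with the same spread over guides in every pool and no shift of the control guides. CF3 was unlike that, with raised controls and a median SD per target of 0.28 against 0.15 in CF1. The simulation therefore does not cover CF3. Alternatives were other centrings, TMM factors of edgeR 4.0.16, count minimums, pseudocounts, summaries over guides and folds. Python 3.11.15, numpy 2.4.6, pandas 2.3.3, scipy 1.17.1 and R 4.3.3 were used.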

Additional observations from a re-analysis of the deposited data

How the results depend on the processing

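The counts of shifted genes, the median over genes and the shares of guides were recomputed under the alternatives, which gave 76 values. Of these, 71 equalled the reported count, or lay within the SD over genes or the binomial interval over guides, and 5 did not. Some of the 71 were fixed in advance or nearly so, so their number overstates the stability. Each member guide had at least 7593 counts in either arm, so the count minimums dropped none. Genes that did not pass a fold of 0.3 cannot pass one of 0.5. Centred on the negative-control guides, 1 gene was lower (SETD1A in CF3, at -1.31), as were 33.8% of targets and 100% of those of CF3. At -0.3 or below lay 16.25% of member guides, against 36.6% of all target guides. These shares are unlike in make-up, since CF3 held 10 of the 80 member guides but 1072 of the 3300 target guides. Without CF3, an alternative added after the data were seen, that centring gave 0 lower genes and 4.29%, against 0.474% of targets and 6.46% of target guides. With no centring the median over genes was -0.13, 23.75% of guides lay above 0 and 17.5% at -0.3 or below, where all targets had -0.12, 29.8% and 20.6%. With a fold of 0.2, 0 of the 7 genes were shifted, where 5.68% of targets were higher and 7.26% lower.

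WDR5 ran from -0.29 to -0.07 over 12 alternatives, MEN1 from -0.25 to -0.03, KMT2A from -0.18 to -0.05, KMT2B from -0.12 to -0.005 and SETD1B from -0.10 to -0.005. KMT2D ran from -0.04 to 0.19, with 11 of 12 above 0. SETD1A ran from -1.31 to 0.04, with 9 of 12 below 0. The related lists and the count of WDR5 and MEN1 guides below 0 were recomputed on the negative-control guides, also chosen after seeing the data. No paired analysis was possible because each arm of a pool is 1 sample.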
